A study of Rattus norvegicus with 18 samples.

Results

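The enzymes that oxidise ethanol to acetaldehyde, and acetaldehyde onwards to acetate, were followed through all 18 arrays of a study of rat brain. They were 10 genes chosen by name: the alcohol dehydrogenases Adh1, Adh4, Adh5 and Adh7, catalase (Cat), the cytochrome P450 Cyp2e1, and the aldehyde dehydrogenases Aldh2, Aldh1a1, Aldh3a2 and Aldh9a1. Each had 1 distinct probe, so that 10 probes were examined among 41012 on the array, and 10 genes among 16262 that could be named. The transcript that the array calls Adh1 now carries the RefSeq symbol Adh1c. They were listed by name and not by a threshold on their values.

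Total RNA from WHP and WLP rats, strains selected for high and low ethanol preference, was compared in 3 areas, namely the prefrontal medial cortex, the hippocampus and the nucleus accumbens. All animals of both strains were alcohol-naive males, so no group had received ethanol, and the labels give no age. Each sample was a pool of equal amounts of RNA from 3 rats, and each array carried 1 WHP pool in one dye and 1 WLP pool in the other. A further array with the dyes exchanged repeated each of the 9 pool pairs, which left n = 3 pool pairs per area. A pool hides the spread among its 3 rats, and whether 1 animal gave tissue to pools of several areas is not stated in the labels.

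In liver, ethanol is oxidised mainly by cytosolic alcohol dehydrogenases, which pass its hydrogen to NAD+. Brain tissue holds little of the class I enzyme, and there catalase, a peroxisomal enzyme that can use hydrogen peroxide to oxidise ethanol, and the microsomal CYP2E1 are regarded as the main routes to acetaldehyde. Acetaldehyde is cleared chiefly by the mitochondrial enzyme ALDH2, and cytosolic ALDH1A1 contributes while also making retinoic acid and oxidising the aldehyde derived from dopamine.

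The values rest on 1 probe per gene, and the sequences of 6 probes on which the descriptions turn are printed so that the transcript part they read can be seen. They are given 5′ to 3′ as the array design lists them, in lower case with nothing marked.
Aldh2: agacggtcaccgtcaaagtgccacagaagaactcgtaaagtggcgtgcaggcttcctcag
Aldh9a1: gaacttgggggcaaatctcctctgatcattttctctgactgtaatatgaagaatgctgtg
Cat: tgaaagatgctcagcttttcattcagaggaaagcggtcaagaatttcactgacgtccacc
Adh1: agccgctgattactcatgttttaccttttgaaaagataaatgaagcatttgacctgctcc
Adh5: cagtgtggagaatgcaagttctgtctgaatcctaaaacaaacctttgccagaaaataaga
Cyp2e1: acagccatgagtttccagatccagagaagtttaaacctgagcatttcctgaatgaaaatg
On the rn4 build that the files name, the Aldh2 probe lay at chr12:36114847-36116140, the Cat probe at chr3:88683063-88685007 and the Adh5 probe at chr2:235983786-235987040, all on the plus strand. These 3 intervals spanned 1294, 1945 and 3255 bases for probes of 60 bases, so the files place each in separate blocks. The other probes mapped to single stretches of 60 bases: Aldh9a1 at chr13:83024926-83024985, Adh1 at chr2:235810168-235810227, Cyp2e1 at chr1:200927736-200927795, Aldh1a1 at chr1:223772858-223772917, Adh4 at chr2:235970510-235970569 and Adh7 at chr2:235764840-235764899 on the plus strand, and Aldh3a2 at chr10:47400749-47400808 on the minus strand. Exon annotation of this build was not used here.

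Median spot signals ran from 78.2 to 208.7 in green (Cy3) and from 133.1 to 302.7 in red (Cy5), and the number of arrays limits the precision. Each accumbens pool pair shared a slide with the equally numbered prefrontal pair, all in one scan session, and the hippocampus arrays were scanned in another, so the hippocampus and its session cannot be told apart. Hippocampus markers averaged 1.78 ± 0.07 above the array median in the hippocampus (log2 level, SD over 6 arrays) and 0.96 ± 0.03 and 1.01 ± 0.02 in the nucleus accumbens and the prefrontal cortex. Cortex markers averaged 2.29 ± 0.13 in the prefrontal cortex and 0.80 ± 0.11 in the nucleus accumbens, but 2.15 ± 0.09 in the hippocampus. Striatum markers, though, stood at 3.10 ± 0.28 in the samples labelled prefrontal medial cortex and at 3.19 ± 0.35 in the nucleus accumbens, against 1.37 ± 0.15 in the hippocampus, so these 12 genes did not set the prefrontal samples apart from the accumbens. The dye-swapped arrays of 7 pool pairs correlated across probes at 0.30 to 0.70, and those of nucleus accumbens pair 3 and hippocampus pair 2 at 0.04 and 0.00. On the first arrays of prefrontal pair 1 and hippocampus pair 3, a few spots had local backgrounds of up to 33195 and 28300.5, against array medians of 24 to 42, and the background correction then compressed the ratios of dim probes there. Values with these backgrounds replaced by the array median, a step chosen after seeing the data, are given beside the ratios of detected genes that changed most.

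No ethanol- or acetaldehyde-oxidising enzyme passed the test of WHP against WLP in any area. Detected were Adh1, Adh5, catalase and the 4 aldehyde dehydrogenases in all 3 areas, and Cyp2e1 in the hippocampus alone. Aldh2 was the only one of them with a negative WHP to WLP ratio in all 3 pool pairs of both the nucleus accumbens and the prefrontal cortex, and its hippocampal mean was 0.00. Ratios below are log2 of WHP over WLP, so values above 0 mean a higher WHP signal, and a standard error (SE) is that of the moderated fit over all 9 pool pairs. In the nucleus accumbens 0 of the 7 detected genes passed an adjusted p of 0.05, where 76 of all 30216 detected probes did (0.252%). In the prefrontal cortex 0 of 7 passed against 26 of 28741 probes (0.0905%), and in the hippocampus 0 of 8 against 87 of 34752 (0.25%). The mean of the 3 areas likewise gave 0 of 7 against 810 of 28377 probes (2.85%). At an unadjusted p under 0.05 there were 1, 1, 0 and 1 of these genes in the 4 tests, against 16.3%, 8.45%, 6.68% and 17.8% of all probes. The median ratio over the tested genes was 0.04 in the nucleus accumbens, -0.09 in the prefrontal cortex and 0.07 in the hippocampus, and that over all probes lay within 0.003 of 0. The tests used limma with Benjamini-Hochberg adjustment, and the p-values measure the spread between pools that the labels call biological replicates.

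**Figure D1:**
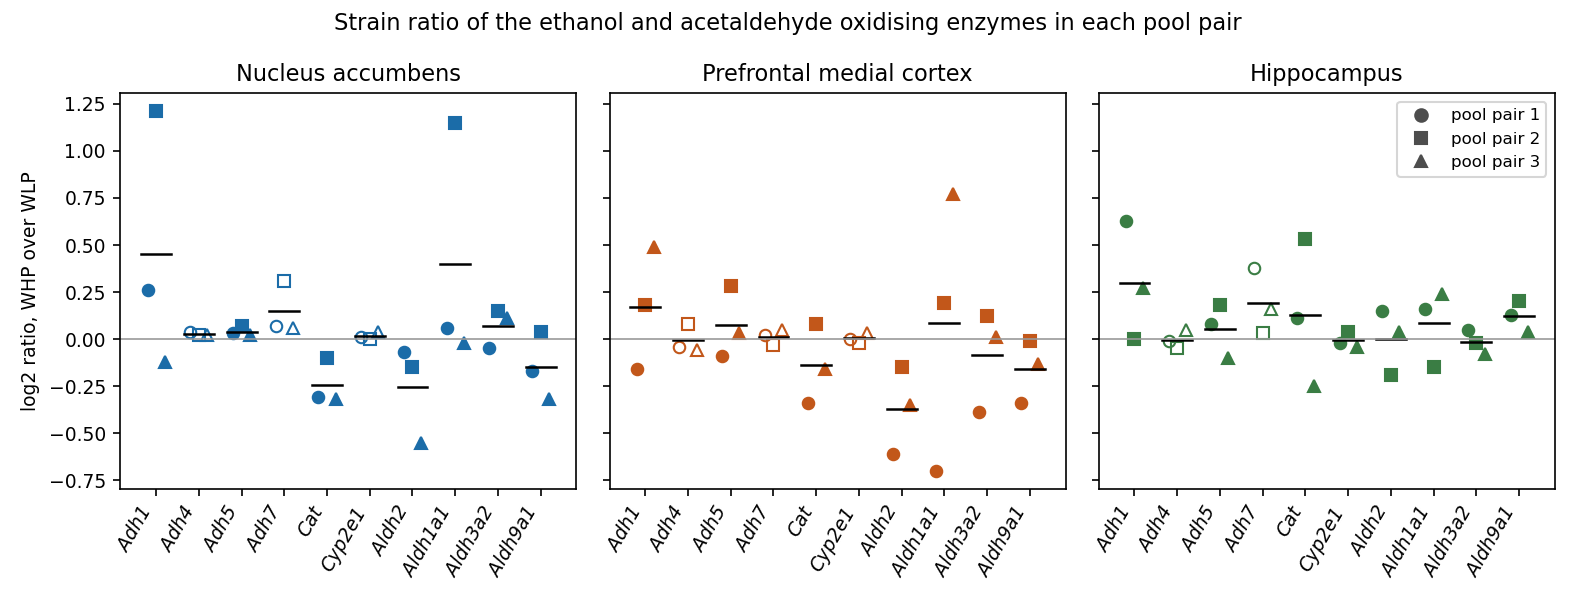
Log2 ratio of WHP over WLP for each gene (vertical axis, log2 units), with 1 point per pool pair, 3 per area, a short line at their mean, and open points where the gene was not detected in the area. The Aldh2 points of the nucleus accumbens and the prefrontal cortex all lie below 0, from -0.61 to -0.07, and 1 accumbens pair of Adh1 and of Aldh1a1 stands above 1.

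Adh1 encodes the class I enzyme, the main ethanol oxidiser of liver, and its ratios were scattered. In the nucleus accumbens the 3 pool pairs gave 0.26, 1.21 and -0.12. WHP levels there were 7.06, 7.93 and 7.29 and WLP levels 6.80, 6.72 and 7.41 on the log2 scale, so the strains overlapped and the second WHP pool was the high one. The mean ratio was 0.45 (SE 0.23, n = 3, adjusted p = 0.376, limma), and it was 0.07 without pool pair 2 and 0.74 without pool pair 3. Prefrontal ratios were -0.16, 0.18 and 0.49, with a mean of 0.17 and an adjusted p of 0.915, and the first of them became -0.29 with the backgrounds replaced. Hippocampal ratios were 0.63, 0.00 and 0.27, with a mean of 0.30 and an adjusted p of 0.972. The third of these ratios became 0.38 with the backgrounds replaced. Over the areas the mean was 0.31 (SE 0.14, adjusted p = 0.281), and it was positive in 6 of 9 pool pairs to 2 decimals, with 1 at 0.

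Adh5, the class III enzyme, is best known as a glutathione-dependent formaldehyde dehydrogenase and is present in most tissues. It was the steadiest of the detected genes in the nucleus accumbens, with ratios of 0.03, 0.07 and 0.02 in the 3 pool pairs. The 95% interval of its mean, -0.13 to 0.21, leaves room for a WHP level between 0.92 and 1.16 times the WLP level. Prefrontal ratios of -0.09, 0.28 and 0.03 and hippocampal ratios of 0.08, 0.18 and -0.10 scattered around 0, with adjusted p-values of 0.85 and 1.

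Adh4 and Adh7, the class II and class IV enzymes found mainly in liver and in upper digestive epithelium, were not well above background in any area by the rule used, which asks for 4 of a strain's 6 arrays. The Adh4 probe was above background on 0 of 6 arrays of each strain and area. Adh7 reached that level on 1 of 6 WHP arrays in the nucleus accumbens, on 2 of 6 in the hippocampus, and on 0 of 6 elsewhere. Their signals are therefore bounds, and their ratios, -0.06 to 0.08 for Adh4 and -0.03 to 0.38 for Adh7 over the 9 pool pairs, were not tested.

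The 4 genes lie close together on the plus strand of chromosome 2, where 10 probes from 235764840 to 235987040 cover 222.2 kb of the alcohol dehydrogenase cluster. Of these 10 probes, 6 were above background in some area, and 0 passed the strain test anywhere. Between 0.0905% and 0.252% of all detected probes passed in an area.

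Catalase had negative ratios in all 3 pairs of the nucleus accumbens, at -0.31, -0.10 and -0.32, and the strains' levels overlapped. The mean of -0.24 (SE 0.13, n = 3) had an adjusted p of 0.397, and 1 array of pool pair 2 gave 0.05. In the prefrontal cortex the ratios were -0.34, 0.08 and -0.16, with a mean of -0.14 and an adjusted p of 0.846. Hippocampal ratios were positive in 2 pool pairs, at 0.11 and 0.53, and -0.25 in the third. The value of 0.53 averages dye-swapped arrays at 0.04 and 1.02, and without that pool pair the mean of 0.13 became -0.07. With the outlying backgrounds replaced, prefrontal pair 1 moved to -0.44 and hippocampus pair 3 to -0.41.

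Cyp2e1, the ethanol-inducible microsomal P450, was not well above background in the nucleus accumbens or the prefrontal cortex, on 0 of 6 arrays of either strain. In the hippocampus its probe, spotted 10 times on each array, was above background on 5 of 6 WHP arrays and 6 of 6 WLP arrays. Hippocampal ratios were -0.02, 0.04 and -0.04, with a 95% interval of -0.09 to 0.07 for the mean. The signal sat close to the background there, where the offset of the background correction pulls ratios towards 0, so this narrow interval holds for the signal rather than for the transcript.

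Aldh2 encodes the mitochondrial enzyme with the highest affinity for acetaldehyde. In the prefrontal cortex its WHP levels were 11.81, 11.93 and 11.79 and its WLP levels 12.41, 12.08 and 12.15 on the log2 scale. Every WHP pool was below every WLP pool. The ratios of the pool pairs were -0.61, -0.15 and -0.35, their mean was -0.37 (SE 0.11, a level of 0.78 times that of WLP), and its unadjusted p of 0.0104 became 0.413 after adjustment over all probes. Without pool pair 1 the mean was -0.25. In the nucleus accumbens WHP levels were 12.28, 12.28 and 11.77 against WLP levels of 12.35, 12.42 and 12.32, and again no WHP pool reached a WLP pool. The mean ratio was -0.26 (SE 0.11, 0.84 times, adjusted p = 0.307), and it came largely from pool pair 3, at -0.55, whose 2 arrays gave -1.01 and -0.09 and did not repeat each other across probes. Without that pair the mean was -0.11 (adjusted p = 0.871). Hippocampal ratios of 0.15, -0.19 and 0.04 averaged 0.00, with a 95% interval of -0.26 to 0.25. Over the areas the mean was -0.21 (SE 0.07, adjusted p = 0.139), and without accumbens pair 3 and hippocampus pair 2 it was -0.13 (adjusted p = 0.394), left out together after seeing the data.

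**Figure D2:**
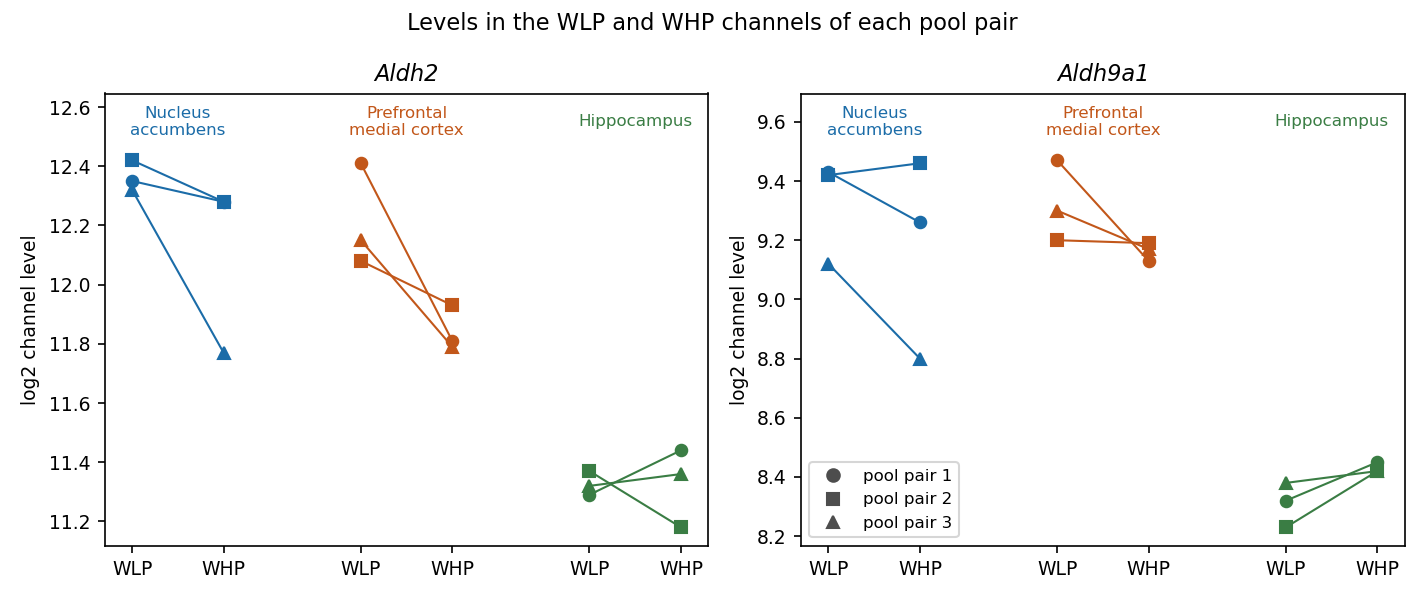
Channel levels (log2, vertical axis) of Aldh2 and Aldh9a1 in each WHP and WLP pool, with lines joining the 2 pools of a pair, in the 3 areas. For Aldh2 the WHP pools lie below all WLP pools in the nucleus accumbens and the prefrontal cortex and among them in the hippocampus, and for Aldh9a1 the strains separate downwards in the prefrontal cortex and upwards in the hippocampus.

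Strain levels that do not overlap were not rare on these arrays. Among detected genes of ethanol oxidation they were 1 of 7 in the nucleus accumbens (Aldh2), 2 of 7 in the prefrontal cortex (Aldh2 and Aldh9a1) and 1 of 8 in the hippocampus (Aldh9a1). Among all detected probes the strains did not overlap for 11.1%, 11.2% and 15.7%, and the ratio had the same sign in all 3 pool pairs for 29.2%, 28.8% and 38%. The gene counts are too small to be read as a departure from these shares.

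Aldh9a1, a cytosolic enzyme that oxidises aminoaldehydes and takes part in carnitine and GABA synthesis, had opposite signs in the prefrontal cortex and the hippocampus. Its prefrontal ratios were -0.34, -0.01 and -0.13, and WHP levels of 9.13 to 9.19 lay just under WLP levels of 9.20 to 9.47. In the hippocampus the ratios were 0.13, 0.20 and 0.04, with WHP levels of 8.42 to 8.45 over WLP levels of 8.23 to 8.38. Means were -0.16 (SE 0.08, adjusted p = 0.64) and 0.12 (adjusted p = 0.927). With the outlying backgrounds replaced the third hippocampal ratio was -0.01, so that the shared sign there did not hold. The first prefrontal ratio became -0.44 in the same setting. Accumbens ratios were -0.17, 0.04 and -0.32, with a mean of -0.15 and an adjusted p of 0.376.

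Aldh1a1, the cytosolic enzyme, varied between pool pairs about as widely as Adh1 in the accumbens, with an SD of 0.65 against 0.69. The nucleus accumbens ratios were 0.06, 1.15 and -0.02, so that only the second pair, also the highest for Adh1, departed from 0. Their mean of 0.40 (SE 0.29, adjusted p = 0.516) fell to 0.02 without it. Prefrontal ratios went both ways, at -0.70, 0.19 and 0.77, and the first was -0.92 with the backgrounds replaced. Hippocampal ratios were 0.16, -0.15 and 0.24. No mean of an area passed the test.

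Aldh3a2, the microsomal fatty aldehyde dehydrogenase, had small ratios. Its accumbens values were -0.05, 0.15 and 0.11, its hippocampal values 0.05, -0.02 and -0.08, and 1 prefrontal pair at -0.39 stood away from the others at 0.12 and 0.01.

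Differences of the strain ratio between areas were tested directly, and 0 of the 7 genes passed in each of the 3 area pairs, as did 0 of the 28502, 29842 and 28588 probes detected in both areas (0% each). The smallest unadjusted p-values were those of Aldh9a1, whose ratio was lower in the prefrontal cortex than in the hippocampus by -0.28 (unadjusted p = 0.0324, adjusted p = 0.997) and in the nucleus accumbens than in the hippocampus by the same amount to 2 decimals (unadjusted p = 0.0371, adjusted p = 0.577). Aldh2 differed between the prefrontal cortex and the hippocampus at an unadjusted p of 0.0482 and an adjusted p of 0.997. At an unadjusted p under 0.05 there were 0, 1 and 2 genes in the accumbens-prefrontal, accumbens-hippocampus and prefrontal-hippocampus tests, against 3.33%, 8.63% and 3.6% of all probes.

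Markers of other cell types differed between the pools too. In these bulk samples fewer cells of a type and less RNA per cell cannot be told apart. The 14 meninges and fibroblast markers had median ratios of 1.18, 2.50 and -0.88 in the accumbens pairs, -0.88, -0.10 and 0.87 in the prefrontal pairs and 0.95, -0.05 and 0.29 in the hippocampal pairs. Beside them stood Adh1 at 0.26, 1.21 and -0.12, at -0.16, 0.18 and 0.49, and at 0.63, 0.00 and 0.27. All 14 were above background in each area, and their summed normalised signal ran from 29200 to 93600 in WHP and from 14800 to 58200 in WLP pools of the accumbens, from 21600 to 30200 and 14800 to 54600 in the prefrontal cortex, and from 24400 to 46500 and 18200 to 26000 in the hippocampus. Aldh1a1 stood at 0.06, 1.15 and -0.02 in the accumbens and at -0.70, 0.19 and 0.77 in the prefrontal cortex beside the same medians. Other lists had prefrontal medians of -0.79, 0.46 and 0.27 (10 oligodendrocyte markers, 0 past the strain test), of -0.79, 0.35 and 0.43 (12 striatum markers, 0 past the test) and of -0.47, 2.22 and 0.09 (10 detected choroid plexus and ependyma markers, 0 past the test). In the hippocampal pairs the choroid plexus list stood at 1.71, 0.16 and 0.61. Further lists had other prefrontal medians, at 0.22, -0.09 and -0.02 for neuron markers and 0.38, -0.44 and 0 for cortex markers. Endothelial and pericyte markers stood there at -0.13, -0.01 and 0.05, and blood cell markers at -0.06, -0.46 and -0.19. Microglia markers had -0.13, -0.11 and -0.03, dopamine neuron markers -0.21, 0.05 and -0.03, and hippocampus markers -0.02, 0 and -0.03. Aldh1a2, a retinaldehyde dehydrogenase of the same subfamily known from meninges, was named after its values were seen. Its mean ratio was 0.93 in the accumbens (range -0.22 to 1.86, adjusted p = 0.297) and 0.60 in the hippocampus. In the prefrontal cortex it was 0.02 (range -0.62 to 0.91). The part of all these markers in the Adh1 and Aldh1a1 ratios was not tested.

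**Figure D3:**
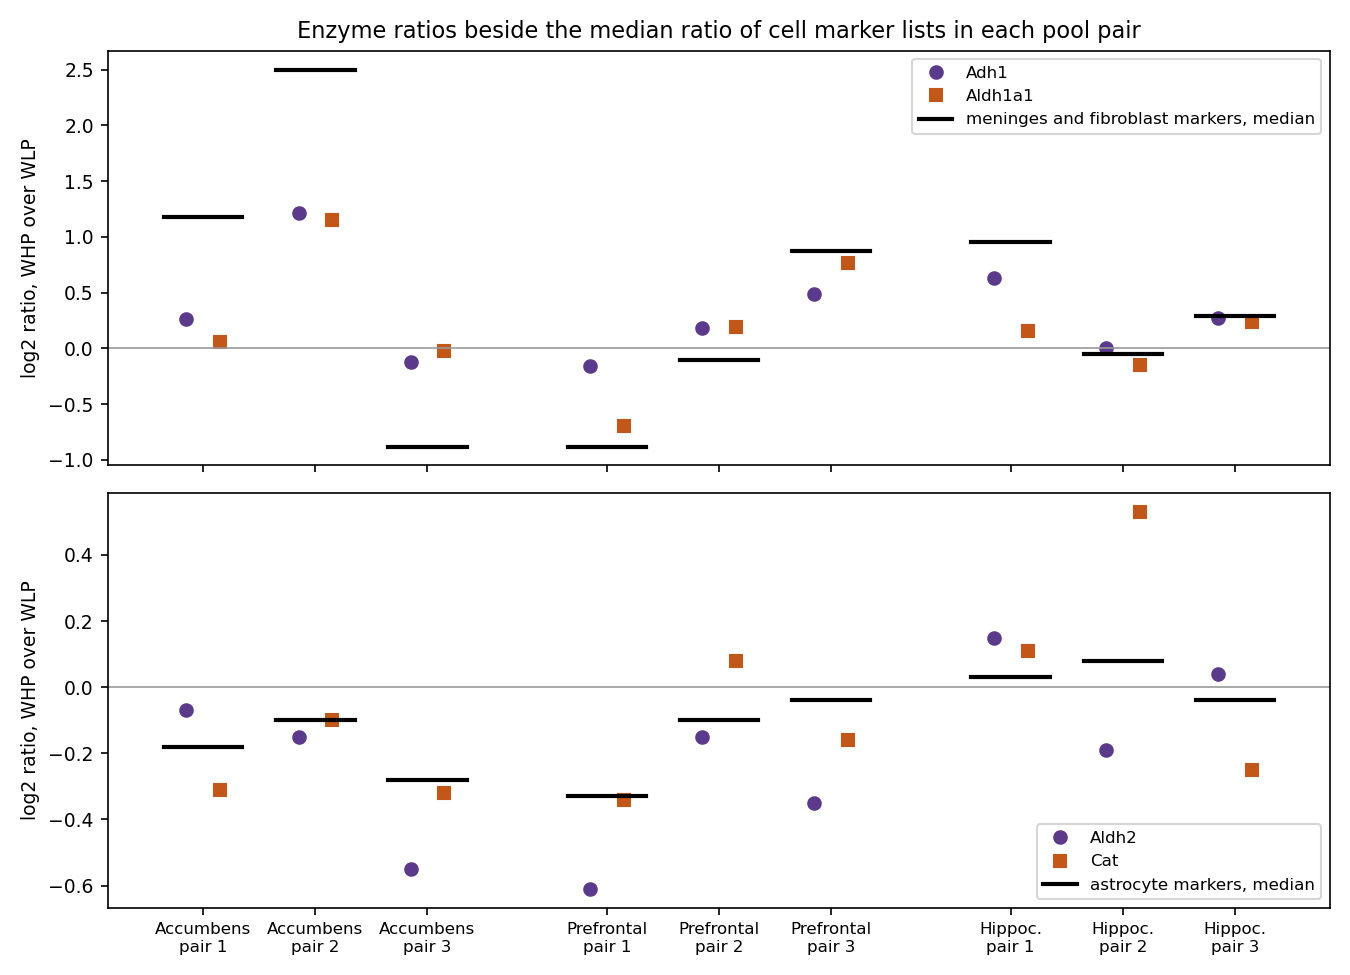
Log2 ratios of WHP over WLP in the 9 pool pairs (vertical axis) for Adh1 and Aldh1a1 beside the median of 14 meninges and fibroblast markers, and for Aldh2 and Cat beside the median of 14 astrocyte markers, each median drawn as a line. The accumbens pair 2 is high for Adh1, Aldh1a1 and the meningeal median, at 1.21, 1.15 and 2.50.

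The 14 astrocyte markers are set beside Aldh2 and Cat. Their median ratios were -0.18, -0.10 and -0.28 in the accumbens pairs, -0.33, -0.10 and -0.04 in the prefrontal pairs and 0.03, 0.08 and -0.04 in the hippocampal pairs. On the mean over pairs, 12 of 14 were negative in the accumbens (median -0.12), 14 of 14 in the prefrontal cortex (-0.17) and 5 of 14 in the hippocampus (0.03), and 0 passed the test in any area. Their summed signal was 186000 to 220000 in WHP and 217000 to 231000 in WLP pools of the prefrontal cortex, 220000 to 246000 and 238000 to 256000 in the accumbens, and 216000 to 219000 and 205000 to 213000 in the hippocampus, with all 14 above background. Negative in the accumbens were also 9 of 10 microglia (median -0.12), 9 of 10 oligodendrocyte (-0.13) and 11 of 12 striatum markers (-0.39). All 14 meninges and fibroblast markers were positive there (0.85). In the prefrontal cortex 6 of 10 microglia (-0.06), 5 of 10 oligodendrocyte (0.01) and 9 of 12 striatum markers (-0.04) were negative. The median over all probes was 0.001 in both areas. The part of any of these lists in the Aldh2 and Cat ratios was not tested.

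Other genes of the pathway gave no call either. Of all detected probes 0.252% passed in the accumbens, 0.0905% in the prefrontal cortex and 0.25% in the hippocampus. At such shares a count of 0 does not set lists of this size apart from all probes. In each area 0 genes passed in either direction among the other aldehyde dehydrogenases (12 detected), other alcohol dehydrogenases and carbonyl reductases (12, 12 and 13), the microsomal electron supply and other ethanol-oxidising P450s (6, 6 and 8), peroxide supply and removal (18, 18 and 19), peroxisome import (12), acetate use (8), NADH reoxidation (12) and retinoid oxidation and binding (15). Median ratios of these 8 lists lay between -0.08, for the microsomal list in the prefrontal cortex, and 0.08, for the retinoid list in the accumbens. Among them Aldh1l1, a cytosolic folate enzyme and astrocyte marker, was picked out after its values were seen. It had a prefrontal ratio of -0.21, from -0.28 to -0.17 in the 3 pairs, with an adjusted p of 0.213. In the accumbens the Aldh1l1 ratio was 0.01, from 0 to 0.04, and in the hippocampus it was -0.04, from -0.14 to 0.03. Cbr3, a carbonyl reductase chosen in the same way, had ratios of -0.21, -0.29 and -0.28 in the accumbens, prefrontal cortex and hippocampus. Its adjusted p-values ran from 0.36 to 0.624. In the same order Cbr1 of that list stood at 0.24, -0.05 and 0.17, and Cbr4 at 0.20, 0.22 and 0.03.

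Between areas, several of these enzymes differed by the test. Aldh1a1 was highest in the hippocampus, and Aldh2 and Aldh9a1 were lowest there. The hippocampus cannot be told apart from its scan session in any of these differences. Levels are log2 of the normalised channel signal averaged over both strains and dyes, so they are compared between areas for 1 probe and never between probes. The numbers of genes past the test are to be read against all probes: 4 of 7 between the prefrontal cortex and the nucleus accumbens, where 49.7% of probes passed, 6 of 8 between the hippocampus and the nucleus accumbens, where 73.5% did, and 5 of 8 between the hippocampus and the prefrontal cortex, where 70.3% did. The last 2 counts include Cyp2e1, which entered those tests through the hippocampus alone. Over the 7 genes detected in both areas they were 5 and 4, beside 22659 of 29842 and 21055 of 28588 probes. These gene counts are too small to be read as a departure from the shares of all probes. Of the genes past the test, 1 was higher and 3 lower in the prefrontal cortex than in the accumbens (24.2% and 25.4% of all probes). Against the accumbens 2 were higher and 4 lower in the hippocampus (38.7% and 34.8%), and against the prefrontal cortex 2 were higher and 3 lower there (37.9% and 32.4%), where Cyp2e1 is among those higher in the hippocampus in both and the signs of Adh5 and Cyp2e1 turned with the scaling, as given below. Median level differences of the tested genes were -0.17, -0.25 and -0.18 in the same order, beside -0.01, 0.03 and 0.03 for all probes.

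**Figure D4:**
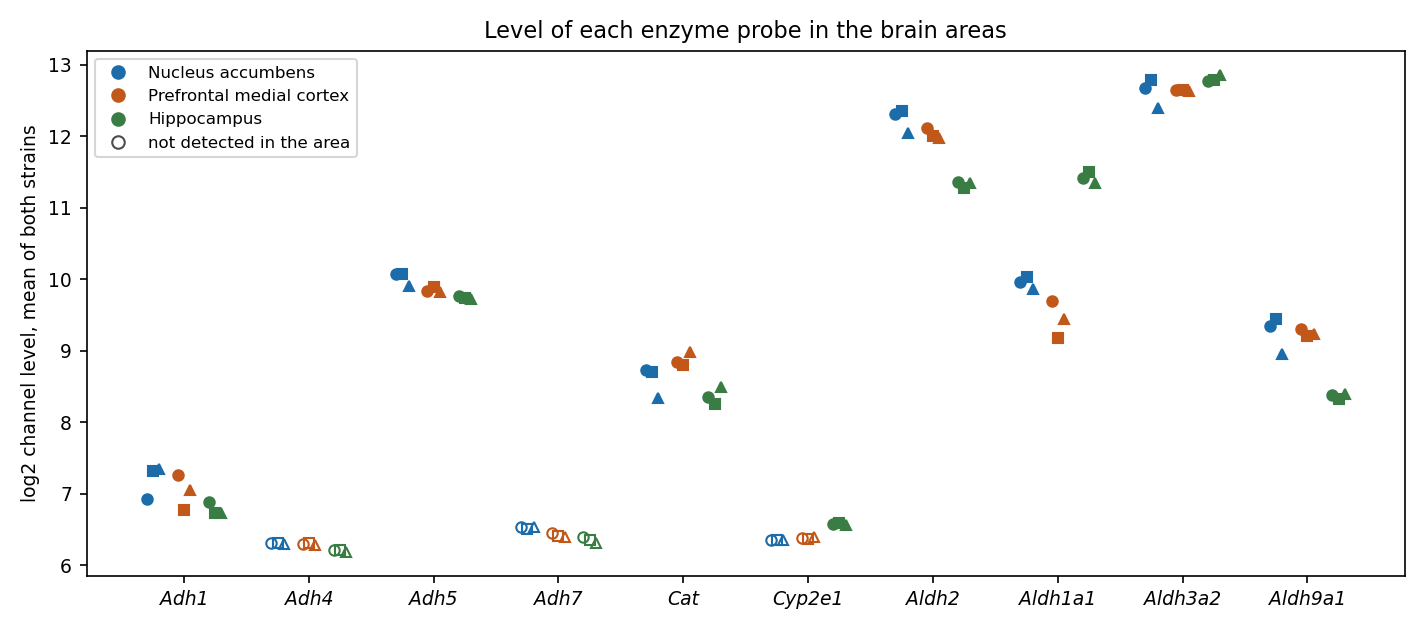
Channel level (log2, vertical axis) of the 10 genes in each pool pair by area, with circle, square and triangle for pool pairs 1, 2 and 3 and open points where the gene was not detected. The hippocampus is highest for Aldh1a1 at 11.34 to 11.50 and lowest for Aldh2 and Aldh9a1, and the small area differences of Adh5 and Cyp2e1 change sign with the scaling between arrays.

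Aldh1a1 stood at 9.96, 10.03 and 9.87 in the pool pairs of the nucleus accumbens, at 9.70, 9.18 and 9.44 in the prefrontal cortex and at 11.42, 11.50 and 11.34 in the hippocampus. The 3 areas did not overlap. Hippocampal levels were 3.95-fold those of the prefrontal cortex (log2 difference 1.98, SE 0.11, adjusted p = 4.92e-07) and 2.76-fold those of the accumbens (1.47, adjusted p = 1.75e-06). Both differences passed under all 18 alternative settings, over ranges of 1.85 to 2.48 and 1.31 to 2.05. The prefrontal level was below that of the accumbens by -0.51 (1.43-fold, adjusted p = 0.00394). The pool pair number is also the slide in both of these areas, but not in the hippocampus. With that number as a block the difference was again -0.51 (adjusted p = 0.00631). That difference did not pass with channel medians in place of quantiles (adjusted p = 0.0989) or in the WLP channels alone (adjusted p = 0.285).

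Aldh9a1 went the other way, at 9.35, 9.44 and 8.96 in the accumbens, 9.30, 9.20 and 9.23 in the prefrontal cortex and 8.38, 8.33 and 8.40 in the hippocampus. The hippocampus was lower by -0.88 than the accumbens (1.84-fold, adjusted p = 3.24e-05) and by -0.87 than the prefrontal cortex (1.83-fold, adjusted p = 4.23e-05), and both passed under all 18 alternatives. Accumbens and prefrontal levels did not differ beyond their spread, with a difference of -0.01 and a 95% interval of -0.24 to 0.23, but without accumbens pool pair 3 the prefrontal level was lower by -0.15 (adjusted p = 0.0445).

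Aldh2 levels were 12.31, 12.35 and 12.04 in the accumbens, 11.97 to 12.11 in the prefrontal cortex and 11.36, 11.27 and 11.34 in the hippocampus. Hippocampal levels were lower by -0.91 than those of the accumbens (1.88-fold, adjusted p = 3.73e-06) and by -0.70 than those of the prefrontal cortex (1.63-fold, adjusted p = 2.75e-05). Both differences passed in 17 of 18 alternatives, and with channel medians they were -0.46 and -0.13, with adjusted p-values of 0.136 and 0.665. The prefrontal level was below the accumbens level by -0.21 at an adjusted p of 0.0499, which passed in 4 of 18 alternatives.

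Catalase was highest in the prefrontal cortex, at 8.84, 8.80 and 8.98, against 8.73, 8.71 and 8.34 in the accumbens and 8.35, 8.26 and 8.50 in the hippocampus. The hippocampus was below the prefrontal cortex by -0.50 (1.42-fold, adjusted p = 0.00166), which passed in 17 of 18 alternatives. The prefrontal cortex was above the accumbens by 0.28 (adjusted p = 0.0464), and with the pool pair number as a block the adjusted p was 0.0748. Hippocampus and accumbens differed by -0.22 (95% interval -0.45 to 0.01, adjusted p = 0.0805). Both accumbens comparisons depended on the setting: the prefrontal one passed in 6 of 18 alternatives and the hippocampal one in 3 of 18. Without accumbens pool pair 3 the prefrontal difference was 0.16 (adjusted p = 0.126) and the hippocampal one -0.35 (adjusted p = 0.00306).

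Adh1 levels averaged 7.20 in the accumbens, 7.03 in the prefrontal cortex and 6.78 in the hippocampus, and neighbours in that order did not differ beyond their spread (adjusted p = 0.31 and 0.128). The accumbens and the hippocampus differed by -0.42 (adjusted p = 0.017), in 11 of 18 alternatives. Adh5 stood at 10.02, 9.85 and 9.74 in the same order. It was lower in the hippocampus than in the accumbens by -0.28 (adjusted p = 0.000832), but with channel medians in place of quantiles the difference was 0.03, and 0.16 with the backgrounds replaced as well. Between the prefrontal cortex and the accumbens Adh5 differed by -0.17 (adjusted p = 0.0235), which was 0 under that last scaling.

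Aldh3a2 stood at 12.61 in the accumbens, 12.64 in the prefrontal cortex and 12.81 in the hippocampus, and 0 of its 3 differences passed for prefrontal against accumbens, hippocampus against accumbens and hippocampus against prefrontal cortex (adjusted p = 0.81, 0.0593 and 0.1). The hippocampal differences of 0.19 and 0.16 were larger under other scalings. With the scanner's processed signals they were 0.56 and 0.49 (adjusted p = 0.000378 and 0.000851), and with channel medians and replaced backgrounds 0.85 and 0.62 (adjusted p = 1.27e-06 and 1.79e-05), where the prefrontal level also passed above that of the accumbens by 0.23 (adjusted p = 0.0253). With the scaling as analysed, the hippocampus passed above the prefrontal cortex without accumbens pool pair 3 (0.16, adjusted p = 0.0104) and above the accumbens without accumbens pool pair 2 (0.27, adjusted p = 0.0102). Cyp2e1 was above background in the hippocampus alone, at 6.57. Against limits set for the other areas it was 1.06-fold higher than in the accumbens and 1.04-fold higher than in the prefrontal cortex. The measured means there were 6.35 and 6.38. Those limits are not strict, since the lowest signals called well above background there were 6.26 and 5.75, below these means. Cyp2e1 entered the test only through the area where it was high, so no p-value is given. These differences depended on the scaling: they were 0.22 and 0.20 on the log2 scale as analysed, 2.13 and 2.23 with the scanner's processed signals, and -0.08 and -0.19 with channel medians and replaced backgrounds. Adh4, at 6.20 to 6.31, and Adh7, at 6.36 to 6.53, gave only bounds in every area.

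Cell type markers also differed between areas. The 13 choroid plexus and ependyma markers averaged 2.55 above the array median in the hippocampus, 0.86 in the accumbens and 0.63 in the prefrontal cortex. In that order 13, 11 and 10 of them were detected. By the test 10 of 13 were higher in the hippocampus than in the prefrontal cortex, as were 37.9% of all probes. The 3 not detected in the prefrontal cortex entered that test through the hippocampus alone. Of 14 astrocyte markers, 5 were lower and 2 higher in the hippocampus than in the accumbens, with a median difference of -0.16. Of all probes 34.8% were lower and 38.7% higher in that comparison. Of 10 microglia markers 8 were lower and 1 higher (median -0.48), and of 10 oligodendrocyte markers 7 were lower and 1 higher (-0.56). Of 9 neuron markers 4 were lower and 3 higher (-0.08). The part of these markers in the levels of Aldh1a1 and Aldh2 was not tested.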

How the data were processed

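RNA of WHP and WLP pools was measured on 18 arrays, 2 dye-swapped arrays for each of 9 pool pairs. Spot intensities were deposited as Agilent Feature Extraction 10.10.1.1 wrote them, uncorrected, with the foreground mean and the local background median of both channels, and the rn4 build is named per the file headers. The same files hold processed intensities from which the scanner software removed background and dye bias, per their headers. A deposited table of log2 ratios, of unstated normalization, was found by comparison with the scanner signals to run as WHP over WLP on all 18 arrays, with medians of -0.011 to 0.022.

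Background was corrected by normexp with an offset of 50 (limma 3.58.1, R 4.3.3), and signals were normalized within arrays by loess, with the 1639 control spots at weight 0. Ratios were turned to WHP over WLP, spots of a probe averaged, and dye-swapped arrays averaged to 1 replicate. Channel levels were further scaled between arrays by Aquantile. Detection in an area required a signal well above background in either strain's channel on 4 of its 6 arrays or more. lmFit and eBayes were fitted over all 9 pool pairs with 1 coefficient per area (6 residual and 2.46 prior degrees of freedom), two-sided, with Benjamini-Hochberg adjustment over all detected probes and a threshold of 0.05. The fit was also run on simulated data with independent noise and known changes in the nucleus accumbens. Such data lack dye-swapped arrays that fail to repeat each other, so they cannot show that the fit suits these arrays. A fold against a group below background sets the hippocampal mean against a limit. Per array that limit was the higher of the lowest signal well above background and the probe's own. It is not a strict bound, since a probe not called above background can lie above that lowest signal.

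The members and gene lists were chosen with earlier results of these data known. All 10 genes are reported, and from the other lists up to 4 genes per list and area that pass the strain test, of which there were none. The few others named were chosen after their values were seen. Pool pairs of different areas share numbers in the labels. The correlation of their deviations was -0.38 to 0.17 for the same number and -0.19 to 0.36 for different numbers, so the numbers were not taken to pair samples. Alternatives changed the background correction, normalization, detection filter, dye orientation, samples and fit. Probes were named through RefSeq, and 19688 of 41012 stayed unnamed. Figures were drawn with matplotlib 3.10.9.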

Additional observations from a re-analysis of the deposited data

Results flagged for a closer look

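In each area the 6 arrays of each gene were examined for an array far from the other 5, in 44 groups of ratios or levels, and 3 groups held one. For 6 independent values chance alone would give about 1 such group in 20. The 6 arrays here were 3 pool pairs with 2 dye-swapped arrays each, so that rate need not hold for them. The Cat ratio of accumbens pool pair 2 on its second array was 0.05, while the other 5 accumbens arrays gave -0.40 to -0.24. The Aldh2 ratio of accumbens pool pair 3 on its first array was -1.01, against -0.18 to 0.03 on the others. The Aldh2 ratio of hippocampus pool pair 2 on its first array was -0.40, against 0.00 to 0.21. The last 2 arrays belong to the pool pairs whose dye-swapped arrays did not correlate across probes.

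The strain ratio of Aldh9a1 differed between areas in that all 3 prefrontal pool pairs were negative and all 3 hippocampal pairs positive. The difference of the means, prefrontal minus hippocampus, was -0.28, and its test gave an unadjusted p of 0.0324 and an adjusted p of 0.997 (limma). With the outlying local backgrounds replaced, the third hippocampal pair was -0.01 and the unadjusted p 0.0457.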

How the results depend on the processing

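No member passed a strain test under any alternative. Of 178 recomputed counts of members, 163 stayed within 1.5 times of the reported count. These include all the strain counts, which were 0 throughout, so for them this measure says nothing. The 15 counts that moved were all of level tests, mostly of the prefrontal cortex against the accumbens. The counts over all probes moved far more: 76 calls in the accumbens became 725 without accumbens pool pair 1, 23 without pair 3, 3 with the area fitted alone, 5 with the first scan session alone and 1 when that session was fitted with the slide as a block; 26 prefrontal calls became 71 with the scanner's processed signals, 53 with outlying local backgrounds replaced and 1 without prefrontal pair 3 or with the area fitted alone; 87 hippocampal calls became 21 with processed signals, 9 without hippocampus pair 2 or 3 and 19 with the area fitted alone; and 810 calls in the mean ranged from 269 with median centring to 1666 with the arrays of WHP in Cy5 alone. Without accumbens pair 3 and hippocampus pair 2 together, a setting chosen after seeing the data, the 4 counts were 2, 8, 2 and 270. With the replicate block the members past each strain test remained at 0, and the all-probe counts were 11, 3, 19 and 491. The Aldh2 ratio was negative in 26 of 26 alternatives in the accumbens (-0.46 to -0.06, lowest adjusted p 0.195) and in the prefrontal cortex (-0.48 to -0.25, 0.254). The members past the level test between the prefrontal cortex and the accumbens went from 4 to 3 with the replicate block, to 1 with processed signals, in the WHP or WLP channels alone or with these 2 areas fitted alone, to 0 with channel medians, and to between 1 and 4 with 1 pool pair left out. Against the accumbens the hippocampal count of 6 became 3 with channel medians (5 to 6 with a pool pair left out). Against the prefrontal cortex the count of 5 became 3 with channel medians, 8 with channel medians and replaced backgrounds, and 5 to 7 with a pool pair left out. Among level differences past the test before or after a change of setting, signs turned for Adh5 and Cyp2e1 alone. With channel medians Adh5 was 0.03 between hippocampus and accumbens and Cyp2e1 -0.20 between hippocampus and prefrontal cortex; with backgrounds replaced as well, Adh5 was 0 between the prefrontal cortex and the accumbens, 0.16 and 0.15 between the hippocampus and each of these, in the order accumbens and prefrontal cortex, and Cyp2e1 -0.08 and -0.19. Calls higher in the prefrontal cortex than in the accumbens were 48.8% of all calls, 33.1% with processed signals (where the median of all probes was -0.15), 37.3% with channel medians and 65.4% with these and replaced backgrounds; between hippocampus and prefrontal cortex, 54% became 66% with processed signals (median 0.26). The cause of these changes was not tested. Signal over background limits Adh4, Adh7 and Cyp2e1.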
